A study of Mus musculus with 4 samples.

Results

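A set of 10 genes was compared between naive CD4+ T cells of mice lacking TACI (TACI-/-) and of wild-type (WT) mice. The genes encode ubiquitin ligases linked to T cell anergy, adaptors of such ligases, and diacylglycerol kinases. They were chosen by name, and each was represented by its brightest probe set among those that the platform annotation pairs with exactly 1 symbol. All 10 had such a probe set, of 22180 genes in all, and 9 of the 10 passed the low-value filter that left 13782 genes for testing. The cells were sorted as CD4+, CD62L high, CD44 low and CD25 negative from spleens and lymph nodes of C57BL/6 mice, with no agent given. TACI, the product of Tnfrsf13b, is a receptor for the cytokines BAFF and APRIL. Each genotype had 2 Affymetrix Mouse Gene 2.0 ST arrays, called biological replicates by their titles. The sources used here do not give the age of the mice or the design of the targeted allele. The number of arrays limits the precision. The p-values are moderated: they combine a variance drawn from all tested genes with the spread between these 4 samples, each from pooled spleen and lymph nodes. The labels give 2 per genotype and do not say how many mice went into a sample, so these p-values may not measure the spread between single mice.

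Anergy is a state in which a T cell that met antigen without costimulation stays alive but responds poorly to the next encounter. Ubiquitin ligases contribute to it by marking signalling proteins downstream of the T cell receptor for degradation or sorting, and adaptors of the Ndfip type recruit and activate ligases of the Nedd4 type. Diacylglycerol kinases act on the lipid branch of the same signal: they turn diacylglycerol, which activates Ras and protein kinase C, into phosphatidic acid.

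None of the 9 tested members differed detectably between the genotypes. Rnf128, below the filter on every array, was not tested, so nothing is concluded about it. The 9 tested members had log2 fold changes (TACI-/- minus WT) from -0.07 to 0.10, with a median of 0.05, against a median of 0.01 over all tested genes. The median of the members was -0.02 without WT replicate 2, 0.09 without TACI-/- replicate 1, 0.08 without WT replicate 1, 0.03 without TACI-/- replicate 2, and 0.10 when the values were quantile normalized again. Of these 9 values 7 were positive and 2 negative. Their median absolute log2 fold change was 0.06, beside 0.13 over all tested genes. No member passed an adjusted p of 0.05 (limma, Benjamini-Hochberg over all tested genes; lowest adjusted p 0.896), where 0.138% of all tested genes did. No member had an unadjusted limma p under 0.05 (lowest 0.501), where 8.78% of tested genes did, and none met the looser criterion of that p with at least a 1.5-fold change, which 2.3% of tested genes met. The 95% interval of each tested member lay inside a 1.5-fold change in both directions, from 1.41-fold lower to 1.34-fold higher at the widest. The same was true of 66.7% of all tested genes. These intervals rest on the moderated variance, with 4.59 of 6.59 degrees of freedom from the prior. Intervals without moderation are not given here, so the bound is stated for the moderated fit alone.

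Cblb encodes Cbl-b, a RING finger ubiquitin ligase that sets the need for CD28 costimulation. It was at 9.08 and 9.15 log2 units in TACI-/- replicates 1 and 2 and at 9.14 and 8.96 in WT replicates 1 and 2. WT replicate 2 was the lowest array and the other 3 spanned 0.07, so the genotypes overlapped. The log2 fold change was 0.07 ± 0.14 (SE), with a 95% interval from -0.26 to 0.40 (limma adjusted p = 0.937).

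Cbl encodes c-Cbl, the related ligase that ubiquitinates activated receptors and kinases. It read 8.48 and 8.61 on the TACI-/- arrays and 8.59 and 8.38 on the WT arrays. Each genotype held 1 higher and 1 lower array, and the difference between the WT arrays, 0.21, exceeded the log2 fold change of 0.06 ± 0.14 (SE). Its 95% interval ran from -0.28 to 0.41 (limma adjusted p = 0.948).

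Itch, a HECT ligase of the Nedd4 type whose loss causes inflammatory disease in mice, was at 7.03 and 7.06 on the TACI-/- arrays and 7.10 and 7.13 on the WT arrays. Both TACI-/- arrays were below both WT arrays, which made Itch the 1 member of 9 whose genotypes did not overlap. Over all tested genes 38.7% did not overlap in one direction or the other. The gap between the genotypes was small, with a log2 fold change of -0.07 ± 0.13 (SE). The 95% interval ran from -0.37 to 0.24 (limma adjusted p = 0.93). The SD was 0.022 on the TACI-/- arrays and 0.019 on the WT arrays, so this SE came mostly from the moderation. With no moderation Itch had the lowest unadjusted p of the members, 0.081 in the limma fit, with an adjusted p of 0.725. The 4 arrays of Itch spanned 0.10 log2 units.

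Nedd4, the founding HECT ligase of that family, was dimmer, at 4.21 and 4.69 on the TACI-/- arrays and 4.49 and 4.52 on the WT arrays. The TACI-/- arrays lay on either side of the WT pair and were 0.48 apart, while the WT arrays were 0.02 apart. Nedd4 therefore had the widest interval among the tested members, from -0.49 to 0.38, around a log2 fold change of -0.06 ± 0.18 (SE) and a limma adjusted p of 0.97. Without TACI-/- replicate 1 the log2 fold change was 0.18, and without TACI-/- replicate 2 it was -0.30.

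Rnf128 encodes GRAIL, a membrane-bound RING ligase of endosomes whose expression makes T cells anergic. Its probe set was at 2.70 and 2.31 on the TACI-/- arrays and 2.93 and 2.65 on the WT arrays. All 4 values were below the filter of 3.74 to 3.77, so they cannot show a difference and no fold is given. Peli1 encodes Pellino 1, a RING-type ligase that marks the NF-kB subunit c-Rel in T cells. It was at 9.84 and 10.0004 on the TACI-/- arrays and 9.99 and 9.84 on the WT arrays. Each genotype held a higher and a lower array, and the log2 fold change of 0.01 ± 0.14 (SE) was smaller than the within-genotype differences of 0.16 and 0.15. Its 95% interval ran from -0.33 to 0.35 (limma adjusted p = 0.997).

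The adaptors Ndfip1 and Ndfip2 are membrane proteins that bind the WW domains of Itch and Nedd4 and release their ligase activity. Ndfip1 read 7.66 and 7.52 on the TACI-/- arrays and 7.45 and 7.54 on the WT arrays. TACI-/- replicate 1 was the highest array, but TACI-/- replicate 2 lay between the WT arrays. The log2 fold change was 0.10 ± 0.13 (SE), with a 95% interval from -0.23 to 0.42 (limma adjusted p = 0.896). Ndfip2 was at 6.16 and 6.28 on the TACI-/- arrays and 6.20 and 6.05 on the WT arrays, with WT replicate 1 between the TACI-/- arrays. Its log2 fold change was also 0.10 ± 0.14 (SE), with an interval from -0.23 to 0.42 (limma adjusted p = 0.898). These were the largest log2 fold changes among the tested members.

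Dgka encodes the diacylglycerol kinase of the alpha type, abundant in resting T cells and reduced on activation. Its 4 values were 11.80 and 11.75 on the TACI-/- arrays and 11.78 and 11.72 on the WT arrays. The 4 arrays spanned 0.08 log2 units, the narrowest range among the 10 genes. The log2 fold change was 0.03 ± 0.13 (SE), with a 95% interval from -0.28 to 0.33 (limma adjusted p = 0.984). Dgkz encodes the zeta type, which limits Ras activation after T cell receptor engagement. It was at 7.48 and 7.36 on the TACI-/- arrays and 7.41 and 7.32 on the WT arrays, again with overlapping genotypes. Its log2 fold change was 0.05 ± 0.13 (SE), with an interval from -0.27 to 0.37 (limma adjusted p = 0.958).

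Among the 10 genes, Dgkz alone had more than 1 probe set. Its dimmer probe set was at 3.83 and 3.68 on the TACI-/- arrays and 3.52 and 3.37 on the WT arrays, above the filter in TACI-/- replicate 1 alone. The genotypes did not overlap there, but at this brightness the values do not bear on the brighter probe set. In all, 8 of the 9 tested members had a within-genotype difference larger than the difference between the genotype means, as did 73.1% of all tested genes.

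**Figure D1:**
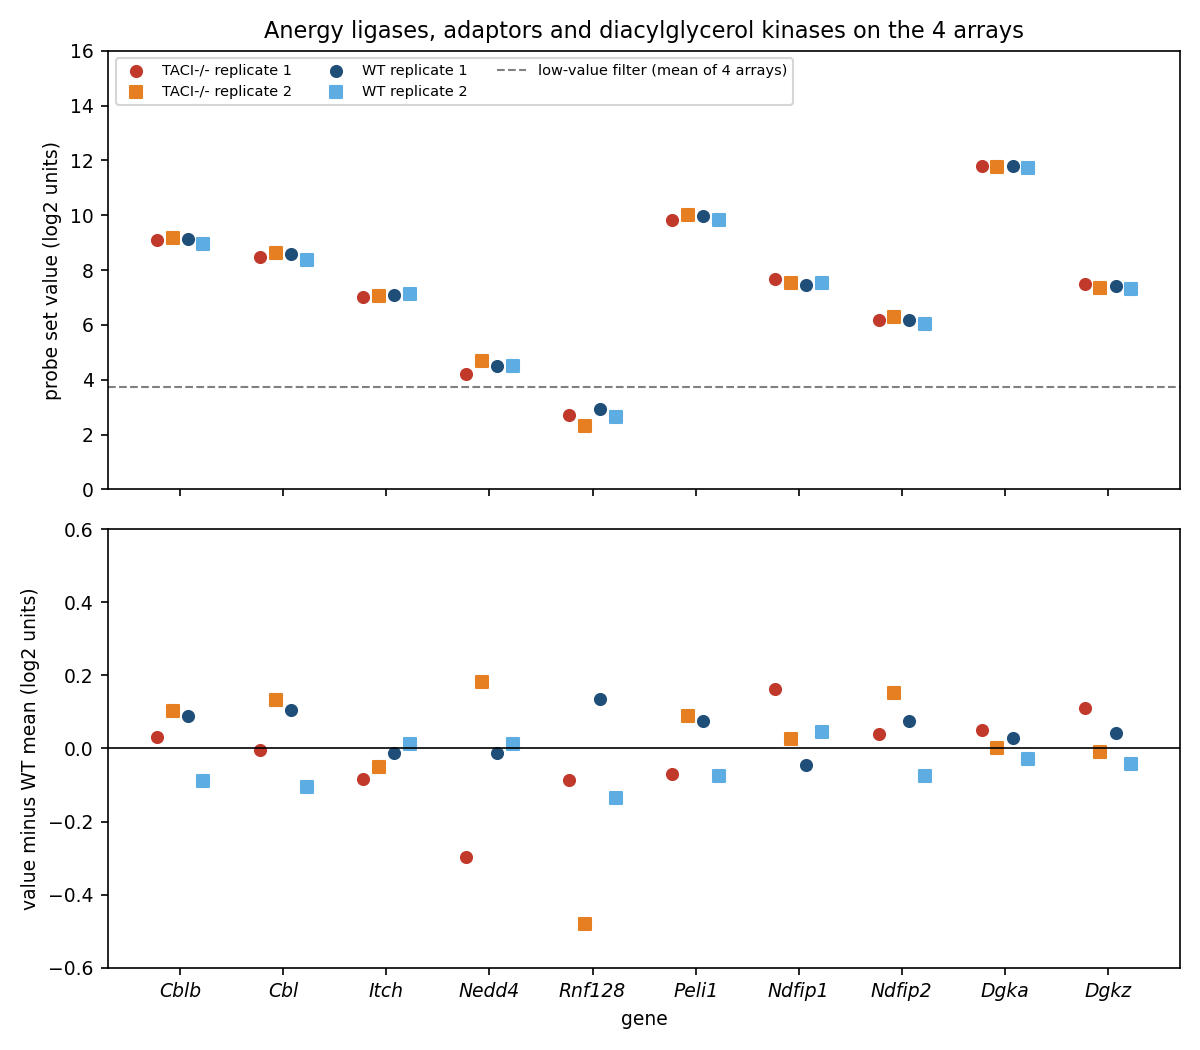
Probe set values of the 10 genes on each array in log2 units (upper panel, the dashed line is the low-value filter) and the same values minus the WT mean of the gene (lower panel). Colours and symbols mark the 4 arrays; the TACI-/- and WT arrays are interleaved for every gene but Itch, and Rnf128 lies below the filter on all 4.

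For 4 of the 9 tested members, Cblb, Cbl, Ndfip2 and Peli1, TACI-/- replicate 2 and WT replicate 1 were both above the other 2 arrays. This order, singled out after the values were seen, held for 12.9% of all tested genes. It runs across the genotypes, and without WT replicate 2 the log2 fold changes of Cblb, Cbl and Peli1 were -0.02, -0.04 and -0.07. The direction of the small differences thus rested on single arrays for Cblb, Cbl, Peli1, Nedd4, Dgka and Dgkz.

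**Figure D2:**
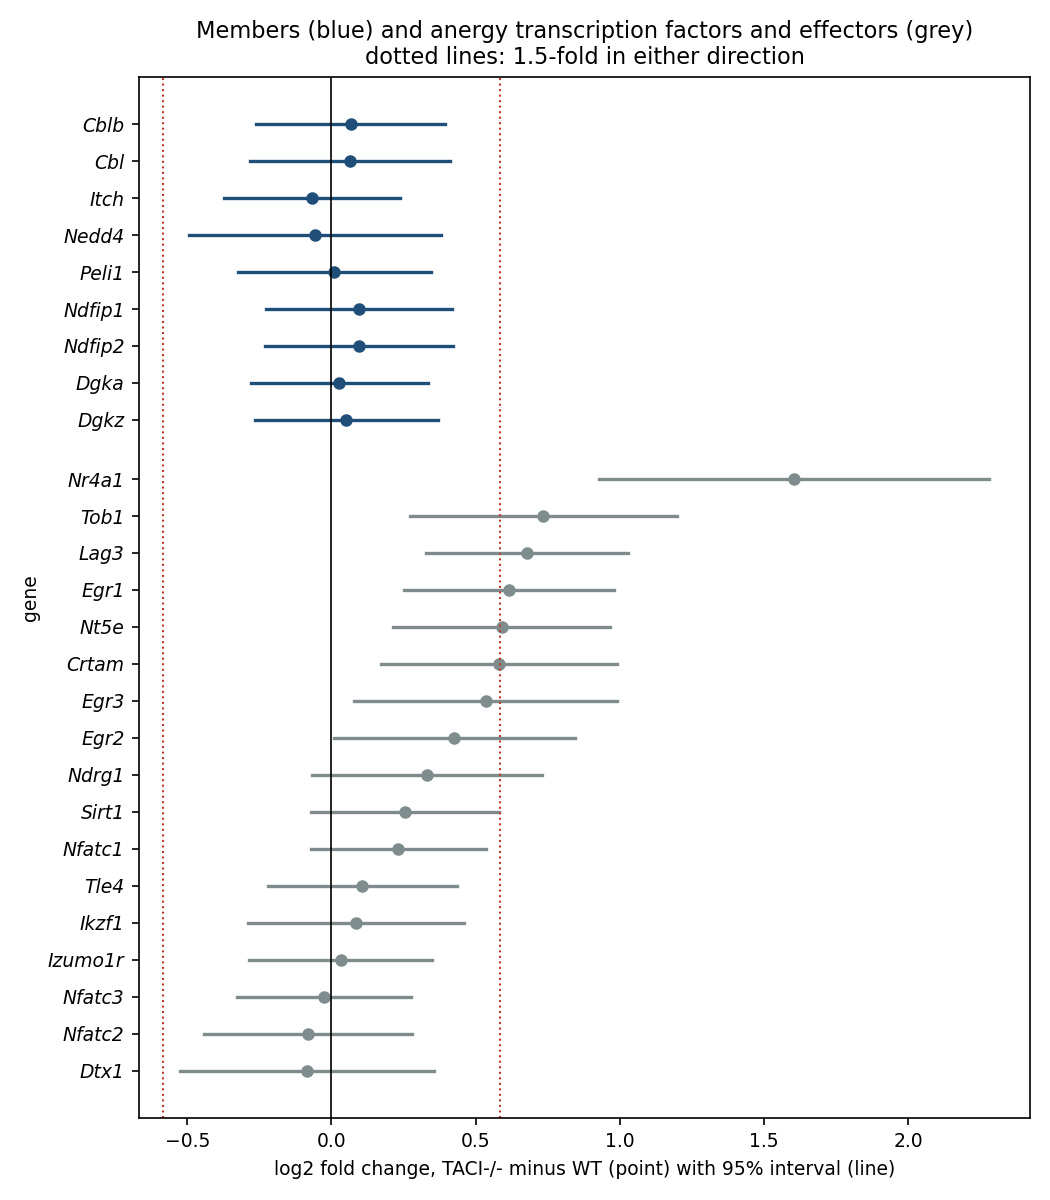
Log2 fold changes (TACI-/- minus WT, points) with 95% intervals from limma (lines) for the 9 tested members in blue and, in grey, all 17 tested anergy transcription factors and effectors. The blue intervals all include 0 and end before the dotted lines at 1.5-fold; the grey points run from -0.08 to 1.61.

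Genes that switch the anergy program on, or that mark anergic cells, were measured beside the members, and none passed adjustment over all genes. Of 17 tested genes on the list of anergy transcription factors and effectors, 0 passed an adjusted p of 0.05 in limma. On this list 8 had an unadjusted limma p under 0.05, all 8 with a positive log2 fold change; the count was 5 without WT replicate 1 and 2 with no moderation of the variance. Over all tested genes 8.78% had an unadjusted limma p under 0.05, 681 of them with positive and 529 with negative log2 fold changes. The list was chosen with earlier results of these data known, so its counts are not an independent comparison with that share. The median log2 fold change of the list was 0.33, with 14 positive and 3 negative values. Nr4a1, an orphan nuclear receptor induced by antigen receptor signals, was at 9.14 and 8.79 on the TACI-/- arrays and 7.78 and 6.93 on the WT arrays. Both TACI-/- arrays were above both WT arrays, by a log2 fold change of 1.61 ± 0.28 (SE) with a limma adjusted p of 0.189. Lag3, an inhibitory receptor that binds class II MHC, was at 4.31 and 4.44 on the TACI-/- arrays and 3.81 and 3.59 on the WT arrays, the last below the filter. Its log2 fold change was 0.68 ± 0.15 (SE) and a limma adjusted p of 0.271.

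The Egr factors, of which Egr2 and Egr3 are known to induce Cblb in anergic T cells, were measured on the same arrays. Egr1 was at 6.55 and 6.31 on the TACI-/- arrays and 5.90 and 5.72 on the WT arrays, a log2 fold change of 0.62 ± 0.15 (SE) and a limma adjusted p of 0.321. Egr2 and Egr3 had log2 fold changes of 0.43 and 0.54, and Tob1, a gene of T cell quiescence, had 0.74. Nt5e, which encodes the adenosine-producing enzyme CD73, had 0.59 and Crtam, a T cell adhesion receptor, 0.58. Egr2, Egr3, Tob1, Nt5e and Crtam were named after their values were seen; limma gave them adjusted p from 0.35 to 0.568. The other 9 tested genes of the list had unadjusted p above 0.05 and were also named after their values were seen. Among them were Dtx1, a ligase of the Deltex family, and the NFAT factor genes Nfatc2 and Nfatc3, with -0.08, -0.08 and -0.03, the 3 negative values. Izumo1r, which encodes the anergy marker folate receptor 4, had 0.03, the Ikaros gene Ikzf1 0.09, Tle4 0.11, Nfatc1 0.23, Sirt1 0.26 and Ndrg1 0.33.

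Marker lists of T cell states and other cell types stood as follows, where 7137 of all 13782 tested genes had a positive log2 fold change. The counts and sums of the lists include markers that failed the filter, which were not tested and cannot show a difference. Activation and memory markers had positive log2 fold changes in 7 of 7 genes, and their summed log2 values were 44.3 to 45.0 on the TACI-/- arrays and 39.96 to 40.41 on the WT arrays. An unadjusted limma p under 0.05, held by 8.78% of all tested genes, was reached by 3 of them. Those were Ctla4, Il2rb and Cd69, with log2 fold changes of 1.57, 1.11 and 0.82. Cd44, Il2ra, Icos and Pdcd1 had 0.19, 0.29, 0.21 and 0.26, and Il2ra overlapped between the genotypes. Regulatory T cell markers, which share Il2ra and Ctla4 with the activation list, were positive in 6 of 6, with sums of 31.5 to 31.9 and 27.1 to 27.9. Foxp3 was above the filter on all 4 arrays, and Nrp1 was below it on all 4 and not tested. Ikzf2 was below it on both WT arrays and passed only through the TACI-/- arrays. Its direction was thus favoured by the filter and is no independent support. Naive T cell markers were positive in 1 of 5, with sums of 52.2 to 52.4 on the TACI-/- arrays and 52.8 to 53.3 on the WT arrays. B cell markers were positive in 7 of 7, with sums of 28.1 to 29.1 and 27.0 to 27.7. Only 5 of these were tested, and none had an unadjusted limma p under 0.05. Ms4a1 and Blk were below the filter on all 4 arrays. Of the CD8 markers, Cd8b1 had -0.65 and Cd8a was below the filter on all 4 arrays; their sums were 8.75 to 9.24 and 9.53 to 9.61. NK cell markers were positive in 3 of 5, with sums of 20.02 to 21.08 and 19.90 to 21.86; Klrd1 had -0.87, while Klrb1c and Klre1 were below the filter on all 4 arrays. Myeloid markers were positive in 4 of 7, with sums of 27.8 to 28.6 on the TACI-/- arrays and 28.3 on both WT arrays; Cd68 had 0.71 and Lyz2 -0.49, while Cd14 and Itgax were below the filter on all 4. Limma gave Cd8b1, Klrd1, Cd68 and Lyz2 adjusted p of 0.327, 0.189, 0.323 and 0.459. The part of these markers in the values of the anergy list was not tested, and in a sorted population more cells of a type and more RNA per cell cannot be told apart. Whether the list differed from the ligases in its response was not tested either.

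The promoter windows of the members were searched for motifs of the factors above. The windows, from the RefSeq table (GRCm38.p6), run from 250 bases before to 50 bases after an annotated start, and 8 of the 10 genes had 13 of them; Itch and Ndfip1 had none. The motifs were AAAGGTCA for NR4A, TGACTCA or TGAGTCA for AP-1 (each the reverse complement of the other) and GCGTGGGCG or GCGGGGGCG for EGR, read on both strands, with no overlap between the matches found. An EGR match stood in 2 of the 13 windows, in Cbl and Nedd4, and in 3.47% of all 32841 windows. An AP-1 match stood in 1, the second window of Nedd4, and in 5.2% of all windows; an NR4A match stood in 0 of the 13 and in 1.51% of all. Matches are letters in a window, not sites that were shown to be bound. The windows of Cbl and Nedd4 with an EGR match had 74% and 73% GC, against a median of 52.7% over all windows. The shares over all windows are not matched for GC content, so no excess is read from these counts. The 3 windows with a match are printed with it in capitals, beside the window of Cblb, which holds none of these motifs. They lie at chr9:44233997-44234296 (minus strand, Cbl), chr9:72662081-72662380 and chr9:72693048-72693347 (plus strand, Nedd4) and chr16:52031299-52031598 (plus strand, Cblb), and each reads 5′ to 3′ along its gene.
Cbl: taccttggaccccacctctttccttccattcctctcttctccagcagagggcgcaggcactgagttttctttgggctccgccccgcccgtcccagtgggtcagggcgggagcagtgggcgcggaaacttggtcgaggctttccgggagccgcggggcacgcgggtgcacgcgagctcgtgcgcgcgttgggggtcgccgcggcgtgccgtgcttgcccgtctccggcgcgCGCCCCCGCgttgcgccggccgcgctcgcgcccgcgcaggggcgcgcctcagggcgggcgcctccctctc
Nedd4 first window: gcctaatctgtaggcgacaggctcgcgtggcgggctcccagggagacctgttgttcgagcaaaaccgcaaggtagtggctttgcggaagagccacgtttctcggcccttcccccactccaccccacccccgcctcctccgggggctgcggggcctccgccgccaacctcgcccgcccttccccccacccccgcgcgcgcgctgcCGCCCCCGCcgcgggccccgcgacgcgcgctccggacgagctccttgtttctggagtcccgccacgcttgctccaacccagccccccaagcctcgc
Nedd4 second window: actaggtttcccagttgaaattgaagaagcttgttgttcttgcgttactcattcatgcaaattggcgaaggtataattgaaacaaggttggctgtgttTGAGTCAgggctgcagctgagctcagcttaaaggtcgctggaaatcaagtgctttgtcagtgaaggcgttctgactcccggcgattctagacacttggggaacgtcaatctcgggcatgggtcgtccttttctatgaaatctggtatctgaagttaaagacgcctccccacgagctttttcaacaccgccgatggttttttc
Cblb: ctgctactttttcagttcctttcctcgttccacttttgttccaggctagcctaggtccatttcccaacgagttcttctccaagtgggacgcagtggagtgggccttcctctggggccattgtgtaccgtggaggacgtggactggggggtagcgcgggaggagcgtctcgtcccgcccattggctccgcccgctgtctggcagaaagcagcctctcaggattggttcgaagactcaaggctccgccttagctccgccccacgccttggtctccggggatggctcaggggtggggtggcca

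The EGR match of Cbl began at -20 from the start and that of the first Nedd4 window at -46, both on the reverse strand, and the AP-1 match of Nedd4 at -152. The member windows were rich in CpG: 12 of 13 held at least 10 CpG, against 43.5% of all windows, and their median GC content was 61.7% against 52.7%. The windows of Dgka overlap in part and several belong to 1 gene, so they are not 13 independent sequences.

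Relatives of the members were measured beside them. The counts of the lists below stand beside the 8.78% of all tested genes with an unadjusted limma p under 0.05. These lists too were chosen with earlier results of these data known. Of 7 tested diacylglycerol kinases, Dgka and Dgkz included, none passed an adjusted p of 0.05 in limma and 0 had an unadjusted p under 0.05. Their median log2 fold change was 0.05. The lowest p belonged to Dgki, at 4.03 and 4.17 on the TACI-/- arrays and 3.82 and 3.74 on the WT arrays, WT replicate 2 being just below the filter. Dgke, the epsilon type, had a log2 fold change of 0.37 ± 0.16 (SE) and a limma adjusted p of 0.585 and Dgkq, the theta type, -0.23. Of 11 tested ligases of the Cbl and Nedd4 types, 0 passed after adjustment and 1 had an unadjusted limma p under 0.05. That was Wwp2, a HECT ligase of the Nedd4 type, at 6.28 and 6.27 on the TACI-/- arrays and 5.87 and 6.03 on the WT arrays, a log2 fold change of 0.33 ± 0.13 (SE) and a limma adjusted p of 0.568. Leaving out any 1 array took that count to 0. Smurf2 and Cbll1 had 0.18 and -0.14.

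Of the 9 tested Pellino and membrane RING ligases, none passed after adjustment and 0 had an unadjusted limma p under 0.05; Rnf130, Znrf4 and Rnf149 had log2 fold changes of -0.23, -0.13 and 0.13. The list of 12 tested partners and cofactors, which holds the deubiquitinases Usp8 and Otub1 that regulate GRAIL, had 0 genes past either threshold and a median log2 fold change of 0.07. Its lowest p belonged to the ubiquitin-conjugating enzyme gene Ube2l3, at 8.44 and 8.26 on the TACI-/- arrays and 8.87 and 8.48 on the WT arrays, a log2 fold change of -0.32 ± 0.17 (SE) and a limma adjusted p of 0.671. Otub1 had 0.19 and Ubash3b, a phosphatase that binds Cbl proteins, 0.17.

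Known substrates of the ligases, 16 of them tested, had 0 genes past an adjusted p of 0.05 in limma and a median log2 fold change of 0.04. With a mean-variance trend in the fit 1 gene of this list passed. At an unadjusted limma p under 0.05 there were 4 genes, all with positive log2 fold changes, and 2 without WT replicate 2. Of all tested genes 8.78% had such a p in the main fit. Junb, an AP-1 subunit and a substrate of Itch, was at 9.47 and 9.13 on the TACI-/- arrays and 8.45 and 8.31 on the WT arrays. The genotypes did not overlap, with a log2 fold change of 0.92 ± 0.16 (SE) and a limma adjusted p of 0.189. Rel, which encodes the Peli1 substrate c-Rel, was at 8.24 and 8.30 against 7.94 and 7.78, a log2 fold change of 0.41 ± 0.13 (SE) and a limma adjusted p of 0.496. Cd28, the costimulatory receptor, had 0.51 ± 0.13 (SE) and Cd83, a surface protein that GRAIL ubiquitinates, 0.39. Cd83 was named after its value was seen. Array signals measure RNA, whereas ubiquitin ligases act on protein.

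Genes of diacylglycerol signalling, the pathway that Dgka and Dgkz limit, numbered 13 tested with 0 past an adjusted p of 0.05 in limma and 1 at an unadjusted p under 0.05. That was Prkce, a protein kinase C gene, at 6.63 and 6.60 on the TACI-/- arrays and 6.28 and 6.27 on the WT arrays, a log2 fold change of 0.34 ± 0.13 (SE) and a limma adjusted p of 0.542. That count was 0 without TACI-/- replicate 1, WT replicate 1 or WT replicate 2. Bcl10, an adaptor that carries the signal to NF-kB, had 0.39 and the kinase gene Prkd2 -0.20. Rasgrp1, the Ras activator that binds diacylglycerol, was at 9.27 and 9.13 on the TACI-/- arrays and 9.22 and 9.16 on the WT arrays, a log2 fold change of 0.01. Prkcq, the protein kinase C of the T cell synapse, had 0.03; it and Rasgrp1 were named after their values were seen.

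**Figure D3:**
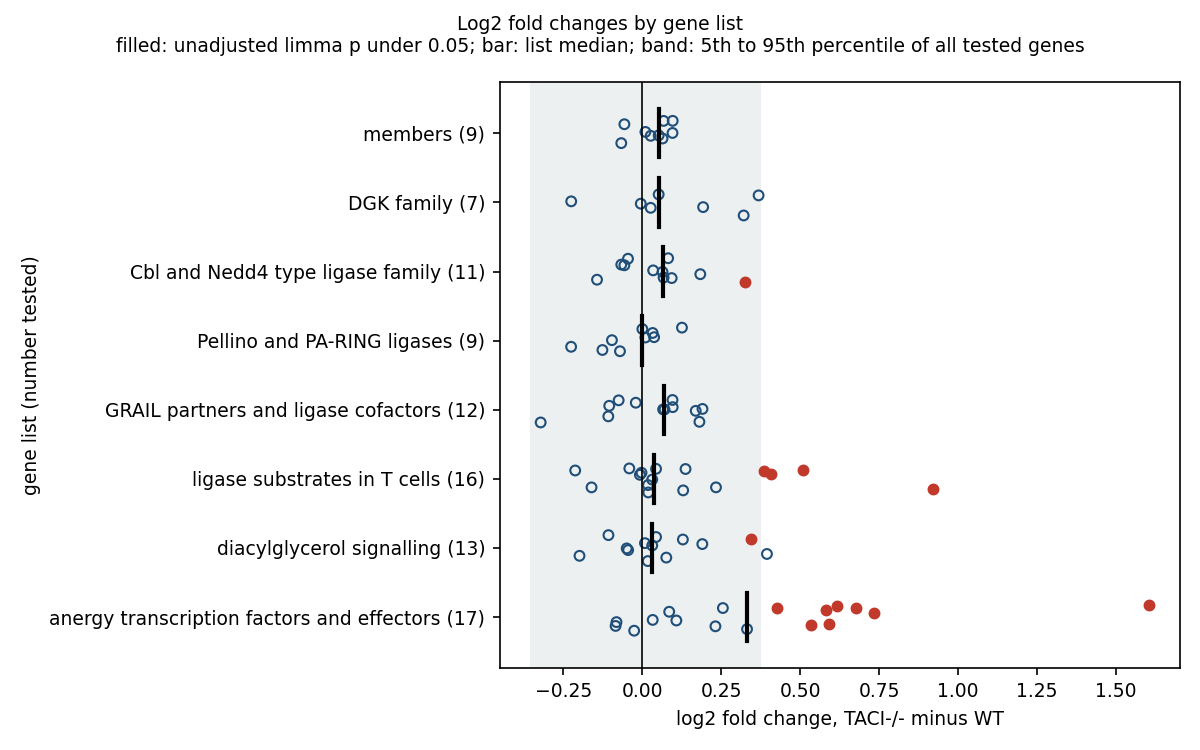
Log2 fold changes (TACI-/- minus WT, horizontal axis) of the tested members and of 7 companion lists, 1 point per gene, with the median of each list as a bar and the 5th to 95th percentile of all tested genes (-0.35 to 0.37) as a band. Filled points have an unadjusted limma p under 0.05, as 8.78% of all tested genes did. They number 0 of 9 members and 8 of 17 anergy transcription factors and effectors. The lists were chosen with earlier results of these data known, so these counts are not independent comparisons. Some genes stand in more than 1 list.

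As checks of the samples, the naive T cell markers Cd3e, Cd4, Ccr7, Il7r and Lef1 were above the filter on all 4 arrays, and the B cell genes Ms4a1 and Blk were below it on all 4, although Cd79a, Cd79b and Pax5 were above it. Cd8b1, the NK cell genes Klrd1 and Nkg7, and the myeloid genes Lyz2, Itgam, Csf1r and Cd68 were above it on all 4 too. Il7r had a log2 fold change of -0.48. Among the markers Ctla4 alone passed an adjusted p of 0.05 in limma (log2 fold change 1.57, adjusted p = 0.0246). Tnfrsf13b, the targeted gene, was between 2.73 and 3.09 on the 4 arrays, below the filter on each, and does not check the genotype labels, since where its probe set lies relative to the deletion is unknown here. Medians of the 4 arrays lay between 4.11 and 4.13.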

How the data were processed

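The values deposited by the authors were on a log2 scale, for 41345 probe sets on each of 4 arrays. Per the submitters' processing notes the authors used RMA and Partek, with no version or role stated; the log base was taken from RMA and the range of the values. RMA normalizes quantiles across arrays, so a shift shared by all genes would not be seen.

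Of the probe sets, 23521 had 1 symbol in the platform annotation. Genes below the 40th percentile of these probe sets on 3 or more arrays were not tested. The test was limma's (version 3.58.1, R 4.3.3), two-sided, on a model of genotype alone moderated by eBayes with 4.59 prior degrees of freedom, and p-values were Benjamini-Hochberg adjusted over 13782 genes. Intervals are 95% intervals of single genes, not adjusted for their number. The fit was tested on simulated data.

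The members, lists, motifs and tests were chosen with earlier results of these data known. Named genes were all members, the 3 lowest p of each list (a gene past the threshold would have been added), the targeted gene and the markers; others are marked as chosen after their values were seen. List genes without a probe set of 1 symbol, and protein sequences, were not analysed here. Values of different probe sets are not comparable with each other. The alternatives were other filters, centring, quantile normalization, probe set choice, variance models, the replicate block, leaving out each array and another threshold.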

Additional observations from a re-analysis of the deposited data

How the results depend on the processing

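No member passed an adjusted p of 0.05, or an unadjusted p under 0.05, in limma under any of the alternatives run, including no moderation (lowest member p 0.081). The log2 fold changes of the members changed sign in these cases. With median centring Peli1 was at -0.00191. Leaving out 1 array in turn gave -0.021 to 0.16 for Cblb, -0.043 to 0.17 for Cbl, -0.30 to 0.18 for Nedd4, -0.069 to 0.089 for Peli1, -0.0021 to 0.055 for Dgka and -0.0085 to 0.11 for Dgkz. Itch, Ndfip1 and Ndfip2 kept their direction throughout. Quantile normalization again gave 0.13 for Peli1 and 0.12 for Dgka, and the mean over probe sets 0.18 for Dgkz. With the second brightest probe set Dgkz was not tested.

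The number of genes past an adjusted p of 0.05 was 19, and it was 3 with no low-value filter, 46 with a mean-variance trend, 0 with no moderation (986 at an unadjusted p under 0.05), 38 at a threshold of 0.1, and 0 without any 1 array (721 to 1145 at an unadjusted p under 0.05). With the replicate block 13 genes and 0 members passed. The replicate numbers are shared only as numbers: the within-genotype differences of the genotypes correlated at r = -0.03 over 13782 genes, which are not independent replicates. A fit without 1 array leaves a lone sample that is assumed to vary like the other genotype.

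Among the lists, counts at an unadjusted limma p under 0.05 moved as follows. For the diacylglycerol kinases, 0 became 1 with the 20th percentile filter, quantile normalization again, the mean over probe sets and the replicate block, and 0 to 1 without 1 array. For the Cbl and Nedd4 type ligases, 1 became 0 with no filter, the 20th percentile filter, median centring, no moderation and the replicate block, and without any 1 array; their median log2 fold change of 0.06 ran from -0.052 to 0.12 without 1 array. For Pellino and membrane RING ligases and for partners and cofactors the count was 0 to 1 without 1 array, and the median of the latter ran from -0.0051 to 0.080. For substrates it was 2 to 3 without 1 array, and 1 gene passed adjustment with a mean-variance trend. For diacylglycerol signalling it was 2 with a mean-variance trend, 0 with the replicate block and 0 to 1 without 1 array. For the anergy transcription factors and effectors it was 2 with no moderation and 5 to 8 without 1 array, 5 being the fit without WT replicate 1. The cause of these shifts was not tested.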
